A study of Mus musculus with 12 samples.

Results

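Globin genes encode the protein chains of haemoglobin, the oxygen carrier of red blood cells, and 5 of them were followed here in haematopoietic clusters inside the mouse embryonic aorta. The genes, Hba-x, Hba-a1, Hba-a2, Hbb-bh1 and Hbb-y, were chosen by name and looked up by symbol among the 24138 rows of each deposited table. Symbols of 4 of the 5 genes were present, on 5 rows, because Hba-a1 had no row of its own and Hba-a2 had 2. None of the 5 rows was listed as having too many reads to measure.

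The clusters bud from the aortic wall and contain emerging blood stem and progenitor cells. The aorta-gonad-mesonephros region of C57BL/6 embryos was sorted for cells positive for CD31 and CD117 and negative for SSEA-1, at the embryonic days written E10.5 and E11.5. G1 cells were taken as mKO2-positive cells of Fucci Red animals, and cycling cells past G1 (S/G2/M) as mAG-positive cells of Fucci Green animals, so phase and reporter strain cannot be told apart. The 12 samples formed 4 groups of 3, and whether the 3 came from separate litters is not stated. Each table holds 1 FPKM value per gene and group (fragments scaled to transcript length and to library size), so no SD could be computed and the read depth is unknown. Genes are described as risen or fallen where the authors' deposited table gave a q-value, a p-value adjusted over all genes they tested, of under 0.05. Those p-values measure at most the spread between samples of a group, which may be technical.

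Haemoglobin is a tetramer of alpha-type and beta-type chains. In the mouse, the first red cells, the primitive erythroid cells made in the yolk sac, use the embryonic alpha-type chain zeta (Hba-x) and the embryonic beta-type chains beta-h1 (Hbb-bh1) and epsilon-y (Hbb-y). Definitive red cells of the fetal liver and the adult use alpha (Hba-a1 and Hba-a2) and the adult beta chains. As primitive cells mature in the circulation, they are known to shift from beta-h1 towards epsilon-y and from zeta towards alpha.

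The alpha-type genes lie together on chromosome 11 and the beta-type genes on chromosome 7. In mm10 coordinates, Hba-x was measured at chr11:32276600-32278115 on the plus strand, and Hbb-bh1 (chr7:103841638-103843162) and Hbb-y (chr7:103851754-103853207) on the minus strand. Each of the 5 genes has 3 exons in the GENCODE M21 annotation. The row named Hba-a2 with the higher values lay at chr11:32283675-32284493, where RefSeq places Hba-a1, and the other row named Hba-a2 lay at chr11:32296492-32297310, the position of Hba-a2 itself. They are called the Hba-a1 locus and the Hba-a2 locus below. Both rows span 819 bases.

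The coding sequences show which of these genes a sequencing read can tell apart. They are from GENCODE M21 transcripts (GRCm38), positions count from 1 at the A of the start codon, and capitals mark bases that differ from the first sequence of each set. Coding bases 1 to 60 of the alpha-type genes (chr11:32283707-32283766, chr11:32296524-32296583 and chr11:32276664-32276723, all exon 1) show identical adult copies and a distant zeta gene:
Hba-a1: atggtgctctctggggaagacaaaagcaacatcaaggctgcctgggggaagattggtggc
Hba-a2: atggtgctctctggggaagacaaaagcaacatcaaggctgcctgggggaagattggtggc
Hba-x: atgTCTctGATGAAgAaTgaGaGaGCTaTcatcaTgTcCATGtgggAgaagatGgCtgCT

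Over all 429 coding bases, Hba-a1 and Hba-a2 differed at 1 position, C381T, whereas Hba-x differed from Hba-a1 at 163. Coding bases 351 to 410 of the adult pair (chr11:32284313-32284372 and chr11:32297130-32297189) hold that single difference:
Hba-a1: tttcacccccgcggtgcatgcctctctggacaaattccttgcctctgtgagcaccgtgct
Hba-a2: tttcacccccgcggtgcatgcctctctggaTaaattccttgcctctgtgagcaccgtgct

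Of the 600 windows of 100 bases (the read length) in the Hba-a1 transcript, 339 (56.5%) were also present in the Hba-a2 transcript, where they made up 74.5% of 455. The authors' way of dividing such reads between the copies was not given in the sources used here, so the split between the Hba-a1 and Hba-a2 loci is uncertain. The annotated transcripts differ in length (699 and 554 bases), whereas both rows span 819 bases, so these shares may differ for the rows measured. No window of 100 bases was shared between Hba-x and either adult alpha gene, or between Hbb-bh1 and Hbb-y. The embryonic beta-type genes were 76.4% identical over their coding bases, as their first 60 show (chr7:103843051-103843110 and chr7:103853093-103853152, exon 1, minus strand):
Hbb-bh1: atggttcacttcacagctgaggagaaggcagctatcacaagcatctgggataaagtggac
Hbb-y: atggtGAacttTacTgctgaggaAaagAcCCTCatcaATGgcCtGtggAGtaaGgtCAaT

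Globin RNA was abundant in 3 groups and low in the fourth. Summed over the 5 rows it was 15504 FPKM in E10.5 G1 cells, 19685 FPKM in E10.5 S/G2/M cells, 12380 FPKM in E11.5 G1 cells and 3132 FPKM in E11.5 S/G2/M cells. These sums were 2.77%, 3.31%, 2.36% and 0.523% of the FPKM of all genes, in the same order. Every one of the 5 rows had its lowest value in E11.5 S/G2/M cells. In such bulk samples, fewer cells of a type and less RNA per cell cannot be told apart.

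**Figure D1:**
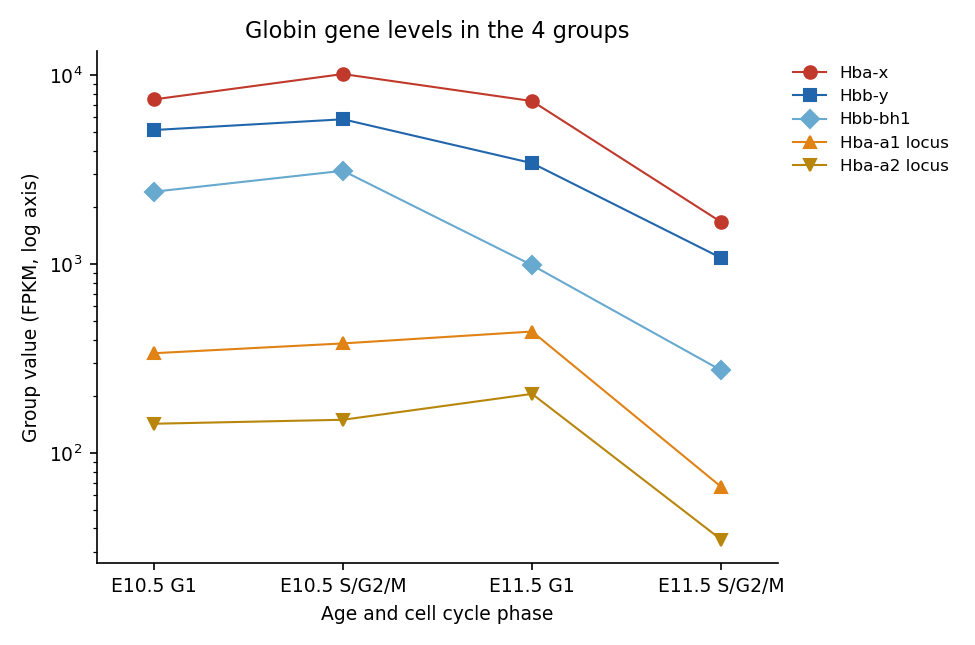
Group values of the 5 globin rows in FPKM on a log axis, 1 point per gene and group from the authors' phase tables, with lines joining the points of a gene. All 5 genes were lowest in E11.5 S/G2/M cells, where Hba-x was at 1674 FPKM against 7312 FPKM in E11.5 G1 cells.

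Hba-x, the embryonic alpha-type gene, was the most abundant of the 5 in every group. Its level was 7462 FPKM in E10.5 G1, 10168 FPKM in E10.5 S/G2/M, 7312 FPKM in E11.5 G1 and 1674 FPKM in E11.5 S/G2/M cells. Among all 24138 rows it ranked 3 in the first 3 of these groups and 65 in the last. At E11.5 it fell 4.37-fold from G1 to S/G2/M cells (q = 0.0102 in the authors' deposited table). At E10.5 it was 1.36-fold higher in S/G2/M cells, with q = 0.991 in the authors' deposited table.

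The adult-type alpha genes were expressed at a small fraction of the level of Hba-x and followed nearly the same course. The Hba-a1 locus had 338 FPKM in E10.5 G1, 381 FPKM in E10.5 S/G2/M, 441 FPKM in E11.5 G1 and 66.4 FPKM in E11.5 S/G2/M cells. The Hba-a2 locus had 143, 150.4, 206 and 34.9 FPKM in the same groups. Unlike the embryonic genes, both loci had their highest value in E11.5 G1 cells. From G1 to S/G2/M cells at E11.5 the Hba-a1 locus fell 6.64-fold (q = 0.0102 in the authors' deposited table). The Hba-a2 locus was 5.90-fold lower there and did not pass (q = 0.14 in the authors' deposited table). Values at the Hba-a1 locus were between 1.90 and 2.54 times those at the Hba-a2 locus across the 4 groups.

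Hbb-bh1, the beta-h1 gene, was the member with the steepest difference by age. It had 2423 FPKM in E10.5 G1, 3127 FPKM in E10.5 S/G2/M, 990 FPKM in E11.5 G1 and 275 FPKM in E11.5 S/G2/M cells. Both E11.5 groups were below both E10.5 groups, which was also true of Hbb-y. At E11.5 Hbb-bh1 fell 3.60-fold from G1 to S/G2/M cells (q = 0.0175 in the authors' deposited table).

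Hbb-y, the epsilon-y gene, was the second most abundant of the 5 in every group. It had 5138 FPKM in E10.5 G1, 5858 FPKM in E10.5 S/G2/M, 3432 FPKM in E11.5 G1 and 1081 FPKM in E11.5 S/G2/M cells. The 3.17-fold lower value in S/G2/M cells at E11.5 did not pass (q = 0.0926 in the authors' deposited table).

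Between phases, then, 0 of 5 rows changed at E10.5 and 3 of 5 fell in S/G2/M cells at E11.5. At E10.5 all 5 rows were slightly higher in S/G2/M cells, by 0.07 to 0.45 on the log2 scale (median 0.19, against -0.04 over all tested genes), although the Hba-a2 locus turned lower when the summed FPKM of the groups was set equal. None had a raw p below 0.05, and 0.655% of all 12984 tested genes were called. At E11.5 all 5 rows were lower in S/G2/M cells, by 1.67 to 2.73 on the log2 scale in size, and all 5 had a raw p below 0.05 in the authors' deposited table. The median was -2.13, against -0.06 over all tested genes, and 0.564% of the 12414 tested genes were called as lower. With G1 and S/G2/M swapped in order in another of the authors' deposited tables, again 3 of 5 fell, against 0.51% of 12344 tested genes. Whether the phase difference itself differed between ages was not tested, because that needs values per sample.

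**Figure D2:**
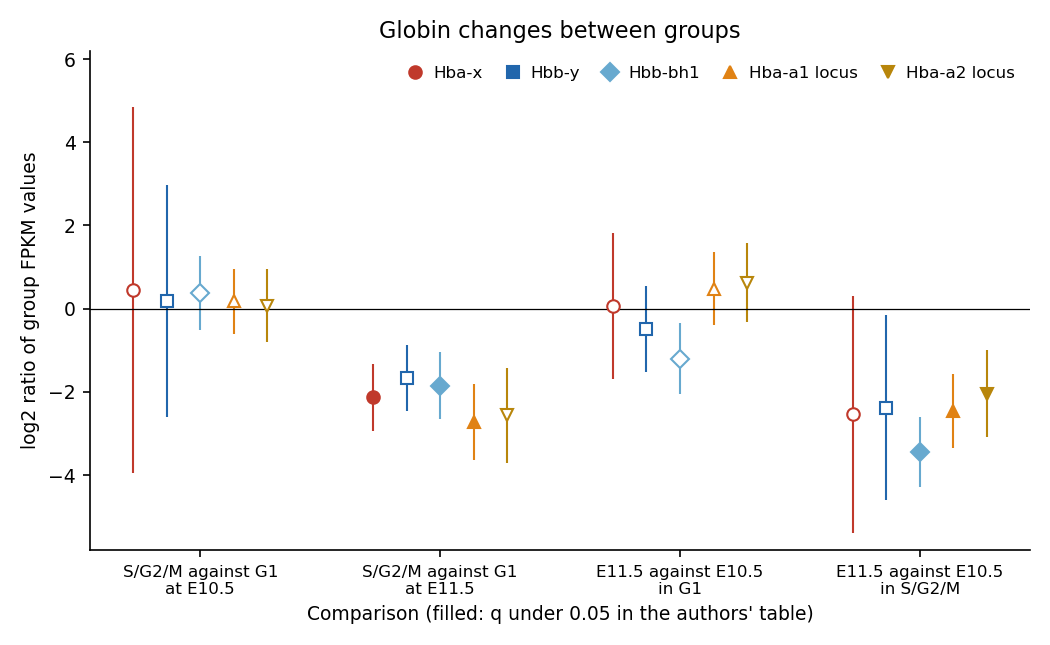
The log2 ratio of group FPKM values for the 5 globin rows in the 4 comparisons, with filled symbols where q was under 0.05 in the authors' deposited table. Bars extend by the log2 ratio that 1 unit of the authors' test statistic stood for, on either side, and are widest for Hba-x and Hbb-y in the comparisons that include E10.5 S/G2/M cells.

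By age, the 5 rows divided in G1 cells and were all lower at E11.5 in S/G2/M cells. The tables by age were scaled apart from the phase tables, so a group's values differ slightly, by 0.861% to 6.92% over the 3 tables that hold it. In G1 cells, Hba-x went from 7048 to 7393 FPKM with age, a ratio of 1.05. The Hba-a1 and Hba-a2 loci were higher at E11.5 by 0.48 and 0.63 on the log2 scale, whereas Hbb-y was 1.41-fold lower and Hbb-bh1, from 2296 to 997 FPKM, 2.30-fold lower. None of the 5 passed, and Hbb-bh1 alone had a raw p below 0.05 (p = 0.0209, q = 0.204 in the authors' deposited table). Of all 12953 tested genes, 4.45% changed with age in G1 cells.

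In S/G2/M cells, 3 of 5 rows fell with age. Hbb-bh1 fell 10.9-fold, from 3156 to 289 FPKM (q = 0.00308 in the authors' deposited table). The Hba-a1 locus fell 5.51-fold, from 385 to 69.8 FPKM, with the same q in the authors' deposited table. The Hba-a2 locus fell 4.13-fold, from 152 to 36.8 FPKM (q = 0.0379 in the authors' deposited table). Hba-x, from 10255 to 1761 FPKM, and Hbb-y, from 5911 to 1137 FPKM, were 5.82-fold and 5.20-fold lower without passing (q = 0.543 and 0.614 in the authors' deposited table). Of all 12768 tested genes, 1.93% fell with age in S/G2/M cells. The 4 comparisons use each group in 2 of them, so the low values of E11.5 S/G2/M cells enter both comparisons in which globin genes fell.

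The calls did not follow the size of the ratio, so the ratios were set beside the authors' test statistic. Dividing the log2 ratio by that statistic gives the log2 ratio that 1 unit of it stood for, used here as a scale of error. The formula of the statistic was not given in the sources used here. For Hba-x this error was 4.39 for the phases at E10.5 and 2.84 for age in S/G2/M cells, against 1.76 for age in G1 cells and 0.804 for the phases at E11.5. For Hbb-y it was 2.79, 2.22, 1.04 and 0.79 in the same order. For the other 3 rows it ranged from 0.787 to 1.14 over the 4 comparisons. Among genes of at least 1000 FPKM in both groups, the median was 0.457 for the phases at E10.5, and Hba-x was the single gene of 98 at its own value or above. In the phases at E11.5, where Hba-x passed, the median of such genes was 0.603. A 5.82-fold lower Hba-x by age did not pass while a 4.37-fold lower Hba-x between phases at E11.5 did. Whether the larger error accounts for this was not tested.

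**Figure D3:**
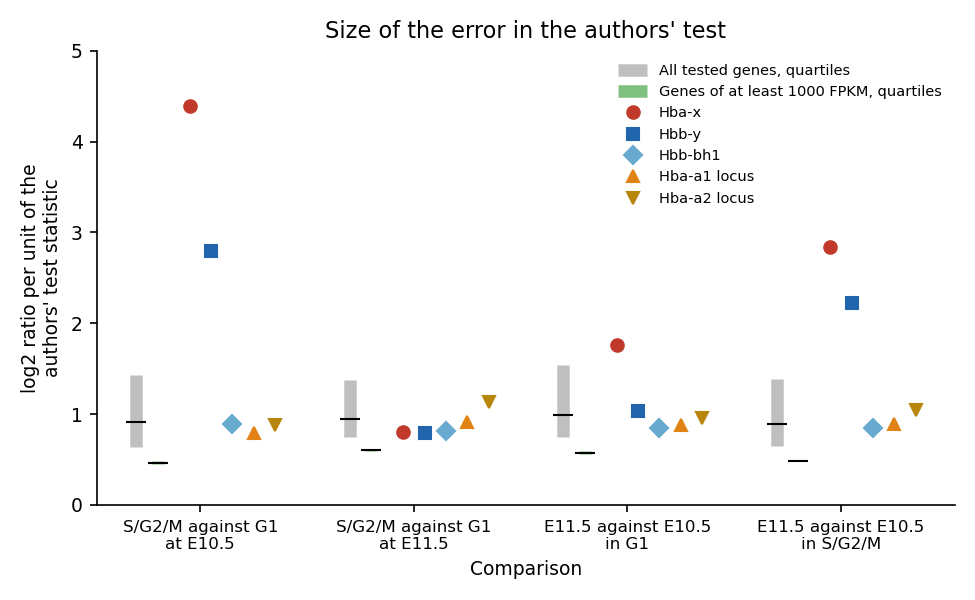
The log2 ratio per unit of the authors' test statistic in the 4 comparisons, with symbols for the 5 globin rows. Grey and green bars give the quartiles over all tested genes and over genes of at least 1000 FPKM in both groups, and black ticks their medians. Hba-x (4.39) and Hbb-y (2.79) stood far above both bars for the phases at E10.5.

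The make-up of the globin RNA moved less than its amount. FPKM is per length, so levels of different genes can be set side by side. Hba-x made up 93.9% of alpha-type FPKM in E10.5 G1, 95.0% in E10.5 S/G2/M, 91.9% in E11.5 G1 and 94.3% in E11.5 S/G2/M cells. By these values the embryonic gene dominated the alpha type in every group, also where its level was lowest. How reads shared by the Hba-a1 and Hba-a2 loci were counted is not known, so the adult-type sum and these shares are uncertain too. Hbb-bh1 made up 32.0% of the embryonic beta-type FPKM in E10.5 G1 and 34.8% in E10.5 S/G2/M, against 22.4% in E11.5 G1 and 20.3% in E11.5 S/G2/M cells. The beta-type share thus separated the ages and not the phases, while the amount was low in a single group. No test of these shares was possible with 1 value per group. The ratio of alpha-type to all beta-type FPKM was 1.04, 1.19, 1.77 and 1.28 in the 4 groups, in the same order.

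**Figure D4:**
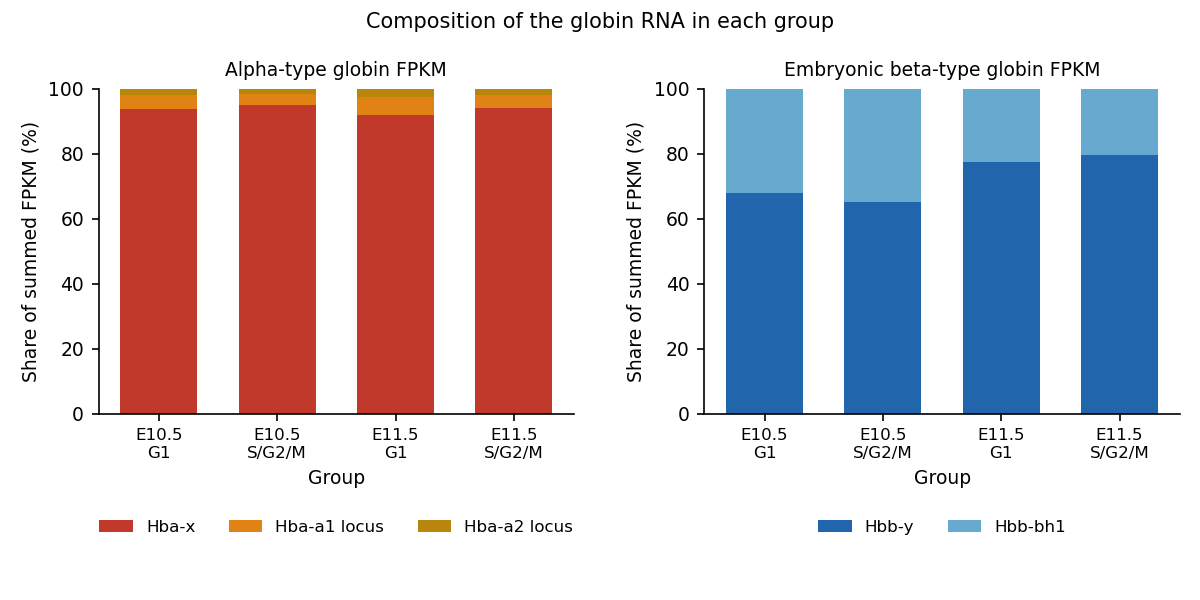
Composition of alpha-type globin FPKM (left) and embryonic beta-type globin FPKM (right) in percent for each group, from the authors' phase tables. The Hbb-bh1 share was 32.0% and 34.8% in the E10.5 groups and 22.4% and 20.3% in the E11.5 groups.

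The adult beta-type genes were close to the bottom of the globin range. The row named Hbb-b2 lay at chr7:103812524-103813923, where RefSeq places the adult gene Hbb-bt, and had 38.5 FPKM in E10.5 G1, 29.5 FPKM in E10.5 S/G2/M, 70.1 FPKM in E11.5 G1 and 33.9 FPKM in E11.5 S/G2/M cells. Hbb-bs, the other adult gene (chr7:103826523-103827928), had 4.95, 9.47, 9.58 and 1.66 FPKM. Their coding sequences differed at a single base, so their split is uncertain too, and so may be their sum. Together they made up 0.572% and 0.432% of beta-type FPKM in the E10.5 G1 and S/G2/M cells, and 1.77% and 2.55% in the E11.5 G1 and S/G2/M cells. Hbb-bh2, a little-expressed beta-type gene, had 2.03 FPKM in E11.5 G1 cells and was listed at 0 in both S/G2/M groups. Of the 12 further globin genes looked up, 8 had a row and none passed in any comparison. Between 3 and 4 of them were tested in each of the 4 comparisons, and 0 had a raw p below 0.05 in the authors' deposited tables. In the E11.5 phase table in the other order, the row named Hbb-b2 had p = 0.0486 and q = 0.588 in the authors' deposited table. The list includes Cygb, Mb and Ngb, globins of other tissues, which had at most 2.39 FPKM in the phase tables.

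Short promoter sequences are shown because the members were lower together in E11.5 S/G2/M cells. Klf1, an erythroid transcription factor, binds CACCC-type boxes, and Gata1 binds GATA sites. In the 250 bases before the RefSeq start (GRCm38.p6), searched on both strands, CCACCC was present in 4 of 4 member promoters (Hbb-bh1 was not used here) and in 28.1% of 32536 promoters of the same length. The letters AGATAA or TGATAA were also present in 4 of 4, against 16.5% of all promoters, and CCAAT in 3 of 4, against 33.8%. None of these matches overlapped another. The promoters of Hba-a1 and Hba-a2 were identical over 247 aligned bases, so they count as copies of 1 sequence. Windows of 30 bases around the CCACCC box, in capitals, are at chr11:32276492-32276521, chr11:32283599-32283628, chr11:32296416-32296445 (plus strand) and chr7:103853302-103853331 (minus strand):
Hba-x: tgataacaggctCCACCCtgcaagccccct
Hba-a1: ccaagggcgtgtCCACCCtgcctggaggac
Hba-a2: ccaagggcgtgtCCACCCtgcctggaggac
Hbb-y: catgacctggctCCACCCatgaggaccacg

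In Hba-x the box began 96 bases before the start and a TGATAA 12 bases further upstream, at 108, as the first letters of its window show. The box began 61 and 64 bases before the start in Hba-a1 and Hba-a2, and 112 in Hbb-y. Outside the members, CCACCC also lay 141 bases before the start of Hbb-bt, and AGATAA 210 bases before that of Hbb-bs. The row at Hbb-bt was lower in S/G2/M cells at E11.5 (70.1 and 33.9 FPKM). By age in S/G2/M cells it was not lower (29.7 and 35.5 FPKM), and it passed in neither comparison. A match is a description of the sequence and no evidence of binding.

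No gene on the list of globin regulators was called lower in any comparison. Of 23 such genes, all tested, 0 changed between phases at either age, with 1 and 4 at a raw p below 0.05 at E10.5 and E11.5 in the authors' deposited tables. With age, 1 rose in G1 cells (Ikzf1) and 4 rose in S/G2/M cells, with 6 and 7 at a raw p below 0.05 in the authors' deposited tables. The 4 were Bcl11a, a repressor of embryonic globin genes (4.36-fold, to 46.0 FPKM), Myb, a factor of progenitor growth (7.62 to 31.9 FPKM), Ikzf1, the Ikaros factor (13.9 to 69.9 FPKM), and Lmo2, a bridging partner of Tal1 and Gata1 (60.6 to 144 FPKM). In G1 cells, where Bcl11a was at 14.7 and 15.5 FPKM, it did not pass. The median log2 ratio of the 23 genes by age in S/G2/M cells was 0.10, against -2.46 for the 5 globin rows and 0.03 over all tested genes. Klf1 had 1.77 and 5.07 FPKM in E10.5 G1 and S/G2/M cells and 2.23 and 2.60 FPKM in E11.5 G1 and S/G2/M cells. Gata1 had 2.59, 3.62, 1.72 and 1.32 FPKM in the same groups. Neither passed in any comparison.

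Other genes of the red cell programme were less abundant than the embryonic globin genes, and even their sum was below the level of Hbb-bh1 in every group. Of 20 red cell membrane and erythroid genes, 18 had a row and 13 to 15 were tested in each comparison. Their FPKM summed to 109 in E10.5 G1, 123 in E10.5 S/G2/M, 98.4 in E11.5 G1 and 73.6 in E11.5 S/G2/M cells. Slc4a1, the band 3 anion exchanger, had 15.2, 16.1, 15.8 and 3.70 FPKM in these groups. In the table by age it fell 4.18-fold in S/G2/M cells (q = 0.0405 in the authors' deposited table), and it was the single gene of the list that passed in any comparison. Between phases and by age in G1 cells 0 passed, with 0, 2 and 1 genes at a raw p below 0.05 for the E10.5 phases, the E11.5 phases and age in G1. The list medians were 0.13 for the phases at E10.5, -1.27 for the phases at E11.5, 0.50 for age in G1 cells and -1.43 for age in S/G2/M cells. Tspo2, an erythroid membrane gene, was listed at 0 in every group.

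The genes for making haem, the iron-holding group of haemoglobin, included no call. All 15 were tested, and 2, 2, 0 and 4 had a raw p below 0.05 in the authors' deposited tables for the E10.5 phases, the E11.5 phases, age in G1 and age in S/G2/M. Alas2, the erythroid enzyme of the first step, had 5.63, 11.2, 3.02 and 1.15 FPKM in E10.5 G1, E10.5 S/G2/M, E11.5 G1 and E11.5 S/G2/M cells. Urod, an enzyme of porphyrin synthesis, had 30.5, 25.4, 14.9 and 15.0 FPKM. Tfrc, the transferrin receptor that brings iron into the cell, had 22.6, 19.5, 32.5 and 11.9 FPKM. The list medians were 0.24, -0.06, 0.10 and -0.44 on the log2 scale for the 4 comparisons.

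Genes that clear haemoglobin and break down haem included calls in the direction of the globin genes between phases at E11.5, and calls as higher by age in G1 cells, where no globin row passed. Of 10 tested, 3 fell in S/G2/M cells at E11.5 (median -0.98). These were Hmox1, haem oxygenase (6.44-fold), Lrp1, a scavenger receptor that takes up bound haem (3.17-fold), and Slc40a1, the iron exporter ferroportin (3.03-fold). With age in G1 cells 4 rose, the same 3 and Blvrb, a biliverdin reductase (15.9 to 80.0 FPKM), and the list median was 1.48. In the other 2 comparisons 0 passed, with 1 gene each at a raw p below 0.05 in the authors' deposited tables and medians of -0.26 for the phases at E10.5 and 0.65 for age in S/G2/M cells. Ftl1, a ferritin chain that stores iron, was at 2423 and 2227 FPKM in the E10.5 G1 and S/G2/M groups and at 4732 and 2410 FPKM in the E11.5 groups, and did not pass in any comparison.

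Markers of other cells were read beside these values. The 15 macrophage markers summed to 364 and 217 FPKM in E10.5 G1 and S/G2/M cells and to 2545 and 731 FPKM in E11.5 G1 and S/G2/M cells, with none at 0. Between phases at E11.5, 8 of 15 fell, among them Lyve1 (10.1-fold) and C1qa (6.06-fold), which is the direction of the globin genes. By age they went the other way from the globin genes in S/G2/M cells, where 8 of 14 rose, and 13 of 15 rose in G1 cells. At E10.5, 0 of 14 passed between phases and 3 had a raw p below 0.05. Their part in the globin values was not tested.

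Of 14 endothelial and cluster markers, 1 fell between phases at E10.5 (Gja5, an arterial gap junction gene, 3.02-fold) and 0 passed at E11.5, where 2 had a raw p below 0.05. With age 4 of 13 rose in G1 cells and 5 of 14 in S/G2/M cells. Kit, which encodes the sort marker CD117, had 15.1, 12.7, 16.9 and 28.9 FPKM in E10.5 G1, E10.5 S/G2/M, E11.5 G1 and E11.5 S/G2/M cells, and Pecam1, which encodes CD31, had 39.8, 30.2, 111 and 69.9 FPKM. Among 12 megakaryocyte markers, the platelet chemokine gene Ppbp rose with age in G1 cells and Pf4, another such gene, in S/G2/M cells. Between phases at E10.5, 0 of 11 tested passed and 1 had a raw p below 0.05. Among 10 genes of mesenchymal and neural cells, 4 fell at E10.5 in S/G2/M cells, where no globin gene passed, and 0 passed at E11.5, where 3 had a raw p below 0.05. With age 5 fell in G1 cells and 3 in S/G2/M cells.

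**Figure D5:**
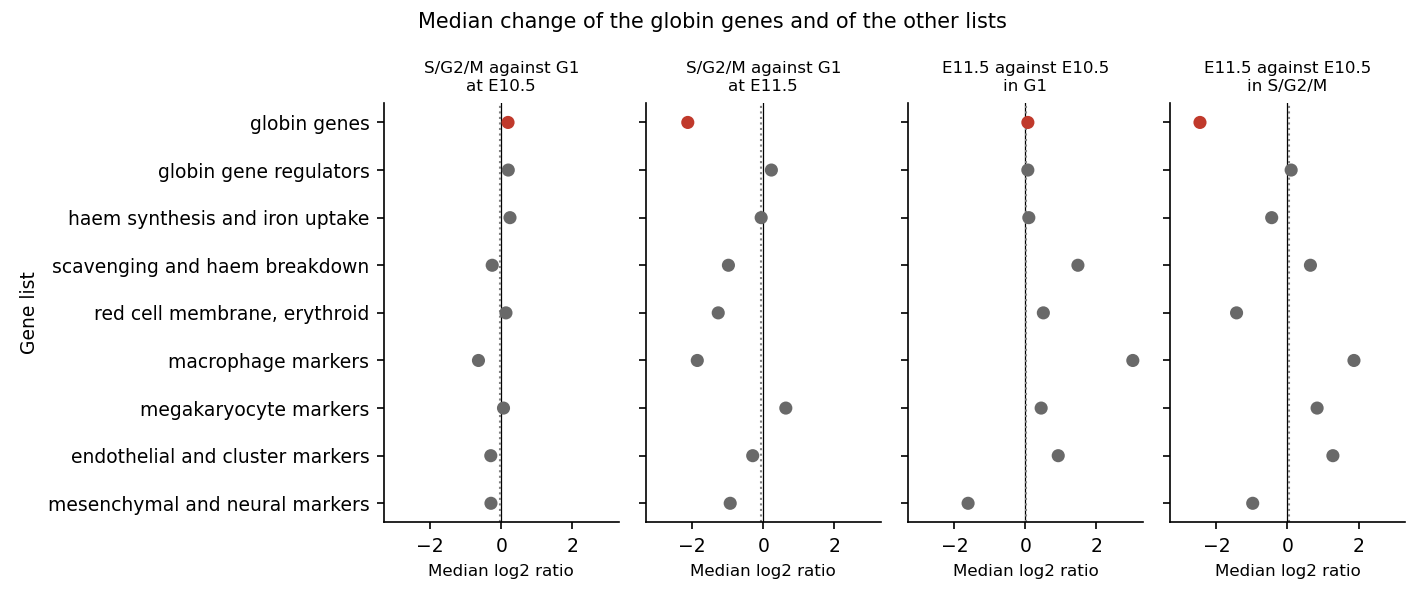
Median log2 ratio of the 5 globin rows (red) and of 8 of the 9 gene lists (dark) in the 4 comparisons, with a dotted line at the median of all tested genes. The globin median was -2.13 for the phases at E11.5 and -2.46 for age in S/G2/M cells, where macrophage markers lay at -1.86 and 1.87. The list of other globin genes, with 2 to 4 values per median, is not drawn, and its medians were -1.79 and -2.46 in these comparisons. The second is the value of Hbb-bs alone (9.56 to 1.73 FPKM), the middle of 3 that include Cygb. The row named Hbb-b2 was higher at E11.5 there (29.7 to 35.5 FPKM), and none of the 3 passed.

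Genes with the most similar course over the 4 groups were sought among 6855 others of at least 5 FPKM in every group, by the largest difference between log2 levels after centring each gene on its mean. With 4 points per gene this is a description only. For Hba-x the nearest was Hbb-y (largest difference 0.33), followed by Snora23, the Hba-a1 locus, Mir1b and Mt2, a metallothionein gene, up to 0.47. For the Hba-a1 locus the nearest were the Hba-a2 locus (0.22) and Hba-x (0.42), then Snora52, Snora23 and Mt2. For the Hba-a2 locus they were the Hba-a1 locus (0.22), Snora23 (0.38), Hba-x (0.48), Mt2 and Grhpr. For Hbb-bh1 the nearest was the chemokine gene Ccl3 (0.43), ahead of Sfrp1, Hbb-y (0.54), Hoxb9 and Zfp36. For Hbb-y it was also Ccl3 (0.18), ahead of Rbpms2, Mir1b, Hba-x and Hoxb9. Ccl3 had 51.1, 57.8, 27.1 and 8.99 FPKM in E10.5 G1, E10.5 S/G2/M, E11.5 G1 and E11.5 S/G2/M cells. The members lay 0.22 to 1.16 apart from one another by the same measure, with the Hba-a2 locus and Hbb-bh1 farthest apart.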

How the data were processed

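RNA of 12 samples in 4 groups was sequenced as 100-base paired reads, per the labels. The build mm10 and the tools Cuffdiff, TopHat and CASAVA 1.4 are listed, per the submitters' processing notes, with no role, while the labels' protocols name bowtie 0.12.2 and mm8. Of 22413 symbols found once in both, 22293 overlapped the RefSeq gene of that symbol in GRCm38.p6, so coordinates are given as mm10, counted from 1 (deposited starts count from 0). The authors deposited 6 gene tables with an FPKM value per group, a test statistic (a score), a p-value and a q-value, per the file headers. S/G2/M is named G2 there. The smallest deposited p is 5e-05, and no value belongs to a single sample.

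Ratios were computed from FPKM without a pseudocount, and no test was run here. Calls rest on the authors' deposited q-values. Levels are from the phase tables unless tables by age are named. The members, 9 gene lists and tests were chosen with earlier results of these data known. Rules named all members, called list genes (at most 4 per direction, or the 2 most abundant) and 5 genes per member of similar course. Other list genes, such as Klf1, Gata1, Alas2, Tfrc, Kit and Hbb-bh2, were named after their values were seen, and some genes are not reported here. Thresholds, scalings, a pseudocount, tables in the other order and row choices were varied. The likeness search was tested on simulated data. Calculations ran in pandas 2.3.3 and numpy 2.4.6 under Python 3.11.15, and plots in matplotlib 3.10.9.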

Additional observations from a re-analysis of the deposited data

How the results depend on the processing

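No paired analysis was possible because the tables hold 1 value per group, and leaving out replicates was not run for the same reason. Of 124 alternatives, 98 concerned a log2 ratio, and the rest a count of called rows, a share of all genes called or an embryonic share. Among those for counts of called rows, 1 moved the count by more than 1.5 times. A log2 ratio was taken as the same if it moved by less than its log2 ratio per unit of statistic. That is a loose bound, as it reached 4.39 for Hba-x. With q under 0.01, the number of globin rows called between phases at E11.5 went from 3 to 0, because the smallest q in that table was 0.0102. By age in S/G2/M cells that threshold left 2 of 3, since the Hba-a2 locus had q = 0.0379 in the authors' deposited table, and keeping only the highest row per symbol, an alternative added after seeing the data, also gave 2 because it drops that locus. For the phases at E11.5, in the authors' deposited table with the groups in the other order, Hbb-y had q = 0.0624 and was marked significant by the authors. A pseudocount, median scaling and the tables in the other order moved no log2 ratio by more than 0.04. Adding up both rows named Hba-a2 moved it by up to 0.29. Setting the summed FPKM equal, with or without the globin rows, was added after seeing the data and moved them by up to 0.22, and it turned the sign of the Hba-a2 locus for the phases at E10.5, which had not passed. Embryonic shares moved by at most 0.0337 percentage points between phase and age tables. Depth is unknown, so it sets no limit that could be computed here.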
